A study of Mus musculus with 14 samples.

Results

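Basophils and mast cells are granulocytes of the type 2 immune response, and 10 genes that these cells use were followed here in cultures of mouse bone marrow. The genes are Fcer1a, Ms4a2, Prss34, Mcpt8, Cpa3, Gata2, Hdc, Cd200r3, Il4 and Tpsb2. They were chosen by name, as a set of known basophil and mast cell genes, with earlier results of these data known. The set makes up 10 of the 17890 genes and 31 of the 58563 RefSeq transcripts in the expression table. Of the 10 genes, 8 had enough counts to be tested, and Il4 and Tpsb2 did not.

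Both groups were prepared from bone marrow of C57BL/6J mice (an inbred strain), all male and 8 weeks old when they were allocated. Mice of the diabetic group received 5 daily injections of 42 to 45 mg/kg streptozotocin, which destroys pancreatic beta cells, counted as diabetic above 16.9 mmol/L blood glucose, and lived with hyperglycemia for 6 weeks. A fast of 12 hours is also recorded for the diabetic group. The control mice are labelled healthy. Marrow progenitors of both groups were then cultured alike for 7 days, with the macrophage growth factor M-CSF in medium holding 5 mmol/L glucose, and polyadenylated RNA was sequenced. Of the 14 samples, the 8 from this culture step were used, 4 libraries lettered D and 4 lettered M. D was read as diabetic. M was assigned to the healthy group by elimination, so a difference states how D compares with M and would change sign if the letters stood for the reverse. Nothing in the labels ties a library to 1 animal. The p-values hence reflect variation from library to library, which may be technical. The second-phase groups, 3 diabetic-trained and 3 untrained samples, were not analysed here.

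Basophils and mast cells carry the high-affinity IgE receptor, in which Fcer1a encodes the alpha chain that binds IgE, Ms4a2 the beta chain and Fcer1g the shared gamma chain. When antigen crosslinks the bound IgE, the cells release stored histamine and proteases and make cytokines such as IL-4. GATA2 is a zinc finger transcription factor required for both lineages, and Mcpt8 and Prss34 encode serine proteases that in mice are used as basophil markers. M-CSF culture is meant to yield macrophages. In bulk RNA, fewer cells of a type and less RNA per cell cannot be told apart.

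The libraries held 19048195 to 20027967 estimated counts on 15496 to 15931 genes. Macrophage and neutrophil genes were both at high levels. Per length, as TPM (transcript abundance scaled to a common total), the neutrophil genes S100a8 and S100a9 stood at 63855 and 69253 TPM in the D and 49963 and 61080 TPM in the M libraries. Of the macrophage list, Lyz2 (14384 and 8715 TPM), Ctsd (3315 and 3335), Lgals3 (1165 and 1264), Itgam (929 and 777), Cd68 (268 and 304) and Gpnmb (265 and 415 TPM) were also high, of which Lyz2 and Itgam are expressed by neutrophils too. The macrophage receptors Csf1r (98.1 and 80.5 TPM) and Adgre1 (49.2 and 28.3 TPM) were present, and Mertk and Mrc1 stayed below 1 TPM on average in both groups. The D libraries differed more among themselves than the M libraries. On the first principal component, which held 64.7% of the variance, D replicate 1 (-16.0) and D replicate 3 (-54.5) stood at the ends of the D group. Results for the 8 tested genes are therefore also given without these libraries.

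The sequences before the transcription starts of Fcer1a, Ms4a2, Prss34, Cpa3 and Gata2 are shown as examples from the tested genes. Mcpt8, Hdc and Cd200r3 were also higher in the D libraries and are not printed. GATA factors are known regulators of mast cell and basophil genes, and their part in the differences was not tested. The sequences come from the RefSeq promoter table of GRCm38.p6, which covers 250 bases before and 50 bases after a start. Only bases before the start and outside the annotated gene are printed, 5′ to 3′ on the gene's strand. Capitals mark GATA words on either strand, that is, GATA with an A or T before it and an A or G after it (such as AGATAA, which reads TTATCT from the other strand). The regions are chr1:173227233-173227479 (minus strand, 247 bases) for Fcer1a, chr19:11623791-11623969 (minus strand, 179 bases) for Ms4a2, chr17:25298144-25298393 (plus strand, 250 bases) for Prss34, chr3:20242210-20242431 (minus strand, 222 bases) for Cpa3 and chr6:88193641-88193890 (plus strand, 250 bases) for the upstream start of Gata2.
Fcer1a: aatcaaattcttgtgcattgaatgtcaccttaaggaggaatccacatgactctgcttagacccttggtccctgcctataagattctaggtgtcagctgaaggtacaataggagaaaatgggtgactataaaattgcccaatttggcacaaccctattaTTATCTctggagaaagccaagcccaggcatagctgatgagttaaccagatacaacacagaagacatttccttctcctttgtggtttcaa
Ms4a2: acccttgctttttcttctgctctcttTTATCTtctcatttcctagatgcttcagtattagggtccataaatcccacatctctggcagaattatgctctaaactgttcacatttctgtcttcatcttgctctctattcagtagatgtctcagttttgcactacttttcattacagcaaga
Prss34: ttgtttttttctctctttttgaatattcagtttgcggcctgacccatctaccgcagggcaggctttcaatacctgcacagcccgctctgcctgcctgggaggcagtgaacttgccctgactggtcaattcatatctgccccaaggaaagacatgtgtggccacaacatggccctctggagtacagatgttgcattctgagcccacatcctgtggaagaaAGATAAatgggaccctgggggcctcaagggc
Cpa3: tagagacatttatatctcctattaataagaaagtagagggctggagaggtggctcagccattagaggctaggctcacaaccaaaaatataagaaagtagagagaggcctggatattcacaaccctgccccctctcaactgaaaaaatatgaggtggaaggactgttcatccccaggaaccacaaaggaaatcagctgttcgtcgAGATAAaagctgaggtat
Gata2: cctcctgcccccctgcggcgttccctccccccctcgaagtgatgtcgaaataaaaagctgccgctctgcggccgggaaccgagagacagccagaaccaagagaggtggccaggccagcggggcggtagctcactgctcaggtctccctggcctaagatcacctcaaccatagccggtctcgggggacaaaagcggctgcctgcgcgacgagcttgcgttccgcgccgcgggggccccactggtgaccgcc

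The table held 11 windows for 9 of the 10 genes, and Tpsb2 was not matched. At least 1 GATA word lay in 8 of the 11 windows and in 7 of the 9 genes, counting also bases inside the annotated gene, which are not printed. Over all 32851 windows of the table, 29.8% held such a word, and over the windows of tested genes 19.9% did. The words began 92 bases before the start in Fcer1a, 31 in Prss34, 46 in Cpa3 and 221 in Hdc. Ms4a2 had words at 224, 37 and 11 bases before its start and Cd200r3 at 115, 39 and 33. Of these, the Ms4a2 words at 37 and 11 and the Cd200r3 words at 39 and 33 lay inside the annotated gene. For Il4, 1 window held a word 80 bases before its start and the other a word 14 bases after. No such word lay in these windows of Mcpt8 or Gata2. The windows of Mcpt8 and Hdc, the downstream window of Gata2 and the Il4 window with the word at 80 lay wholly inside the annotated gene. They do not cover the bases before the outermost start of these genes. Other motifs were searched on both strands. The RUNX word TGTGGT lay in 3 of 11 windows (16.8% of all windows and 13.3% of those of tested genes). The STAT word TTCNNNGAA lay in 1 of 11 (8.30% and 7.10%). The E-box CACGTG or its variant CATGTG, which MITF can bind, lay in 3 of 11 (20.4% and 18.1%). The E-box and RUNX words can share letters. A word is a match of letters, and no binding was measured.

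All 8 tested genes were higher in the D libraries, from 1.53-fold for Cpa3 and Gata2 to 4.57-fold for Fcer1a. Unless another method is named, folds and tests come from counts scaled by TMM (a trimmed mean of ratios between libraries), and TPM are given as levels. In an edgeR quasi-likelihood test over 12839 genes, 34.7% of all genes passed a Benjamini-Hochberg adjusted p of 0.05, 17.4% as higher in D and 17.3% as lower. Of all calls 50.1% were higher in D, and with library totals as the only scaling 31.3% were, with the median of all genes at -0.14 (log2); the 8 genes were called higher under each scaling tried. The 8 genes had a median log2 fold change of 1.05, from 0.61 to 2.19, beside a median of -0.03 over all genes tested. For each of the 8, every D library lay above every M library, which was so for 16.3% of all genes tested. The plot of levels by library shows the separation. Genes that passed the filter on low counts did so partly through the group in which they were high, so the count describes these 8 and not all 10. The set was chosen with earlier results of these data known, so its contrast with all genes is a description. The level of the 10 genes added together ran from 1281 to 1908 TPM in the D and from 573 to 821 TPM in the M libraries.

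**Figure D1:**
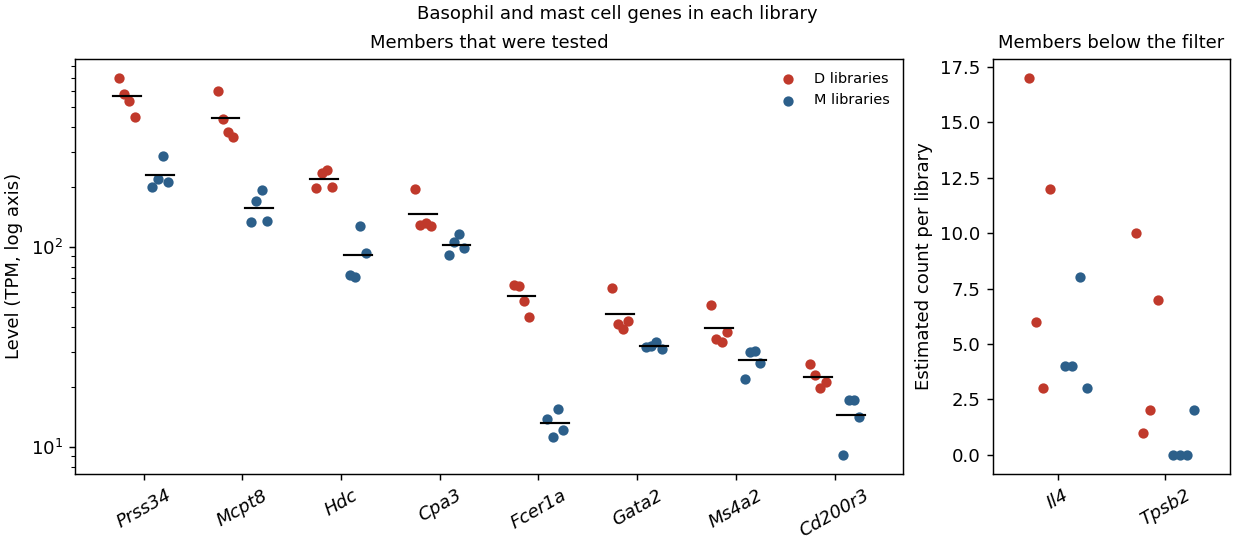
Left, level of each tested gene in TPM (log axis), with 1 point per library, D in red and M in blue, and a black bar at the group mean of 4 libraries. Right, estimated counts per library of Il4 and Tpsb2, which were below the filter. Each tested gene had all 4 D points above its 4 M points, and Tpsb2 was at 0 in 3 M libraries.

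The receptor chains moved by different amounts. Fcer1a (chr1:173221269-173227232) stood at 34.3, 33.8, 30.8 and 24.4 CPM (counts scaled to library size) in D replicates 1 to 4 and at 7.28, 5.75, 7.76 and 6.17 CPM in M replicates 1 to 4. The lowest D library was above every M library by a wide margin. The group means were 30.8 ± 4.54 and 6.74 ± 0.940 CPM (SD, n = 4 each), a 4.57-fold difference with a log2 fold change of 2.19 ± 0.14 (SE) and an adjusted p of 8.64e-06 in edgeR. Ms4a2 (chr19:11615517-11623790) stood at 75.0, 51.1, 52.6 and 55.6 CPM in the D and at 31.7, 41.3, 41.8 and 36.7 CPM in the M libraries. Here D replicate 1 was the highest, and the other 3 D libraries were close to each other and above the M libraries. Its log2 fold change was 0.63 ± 0.13, or 1.55-fold, with an edgeR adjusted p of 0.00507. Fcer1g, the gamma chain that other Fc receptors share, rose 1.27-fold (1230 ± 57.3 against 1027 ± 67.9 TPM, edgeR adjusted p of 0.00619).

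The ratio of Fcer1a to Ms4a2 counts was taken after their values had been seen. It was 0.457, 0.662, 0.585 and 0.440 in the D and 0.230, 0.139, 0.186 and 0.168 in the M libraries. All 4 D ratios were above all 4 M ratios, with a difference of 1.57 in mean log2 ratio. A ratio within a library does not depend on how the library was scaled. Because the pair was picked for its values, the ratio is a description and is given without a p-value.

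A pair of proteases used as basophil markers had the highest levels of the set per length (in TPM); in CPM, which is not scaled by length, Hdc was above Mcpt8. Prss34 (chr17:25298394-25300168), the serine protease also called mouse mast cell protease 11, stood at 440, 365, 368 and 290 CPM in the D and at 124, 133, 171 and 128 CPM in the M libraries. Its log2 fold change was 1.40 ± 0.14, or 2.63-fold, with an edgeR adjusted p of 8.21e-05. Mcpt8 (chr14:56082163-56085499), mouse mast cell protease 8, stood at 268, 196, 182 and 162 CPM in the D and at 59.2, 72.5, 80.8 and 57.6 CPM in the M libraries. It was 2.99-fold higher (log2 fold change 1.58 ± 0.17, edgeR adjusted p of 0.000161). In both genes D replicate 1 was the highest and D replicate 4 the lowest D library, and M replicate 3 was the highest M library.

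Cpa3 (chr3:20215616-20242209) encodes carboxypeptidase A3, a granule enzyme of mast cells that basophils and their progenitors also express. It stood at 144, 96.5, 104 and 96.2 CPM in the D and at 66.6, 73.3, 79.9 and 69.0 CPM in the M libraries. The difference was 1.53-fold (log2 fold change 0.61 ± 0.13, edgeR adjusted p of 0.00485), and D replicate 1 lay far above the other 3 D libraries. Mcpt8 to Cpa3 ratios were 1.87, 2.03, 1.75 and 1.69 in the D and 0.888, 0.990, 1.01 and 0.834 in the M libraries. These groups did not overlap either, and this ratio too was chosen after the values were seen and is given without a p-value.

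Hdc (chr2:126593659-126624025) encodes histidine decarboxylase, which makes histamine. It stood at 252, 300.1, 337 and 264 CPM in the D and at 92.3, 86.8, 155 and 114 CPM in the M libraries. Unlike the other 7 tested genes, it was highest in D replicate 3 and lowest among the D libraries in replicate 1. The difference was 2.57-fold (log2 fold change 1.36 ± 0.18, edgeR adjusted p of 0.000578). Neutrophils and macrophages can also express Hdc. Of 14 tested neutrophil markers, 10 were higher in the D libraries and none lower (17.4% and 17.3% of all genes tested). The summed level of these markers was 135000 to 194970 TPM in the D and 130520 to 131760 TPM in the M libraries. The part of these cells in the Hdc difference was not tested.

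The other genes of histamine handling were read from a list of 8, of which 5 were tested. Higher in D were 4 of the 5, and none was lower (17.4% and 17.3% of all genes tested), with a median log2 fold change of 0.71. Hnmt, the methyltransferase that inactivates histamine, rose 2.35-fold (47.9 ± 12.7 against 21.6 ± 2.03 TPM, edgeR adjusted p of 0.000975). Slc18a2, the vesicular transporter that loads histamine into granules, rose 1.53-fold (23.3 ± 2.51 against 16.3 ± 2.23 TPM, adjusted p of 0.00129). Slc22a3, a transporter that takes up histamine, rose 1.67-fold and the receptor gene Hrh2 1.40-fold, with edgeR adjusted p of 0.0157 and 0.0178. Slc22a3 lost its call without D replicates 1 and 3 (adjusted p of 0.108) and Hrh2 on the log2 TPM scale (limma adjusted p of 0.0602). Hrh4 missed the threshold at 1.37 ± 0.326 against 0.843 ± 0.412 TPM (adjusted p of 0.0511, and 0.0460 with DESeq2 size factors).

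Gata2 (chr6:88193891-88207032) stood at 106, 70.2, 71.5 and 74.7 CPM in the D and at 54.0, 52.6, 54.2 and 50.3 CPM in the M libraries. The M libraries were close to one another, and D replicate 1 stood well above the other D libraries. The difference was 1.53-fold (log2 fold change 0.61 ± 0.12, edgeR adjusted p of 0.00415). Gata2 is also expressed in stem cells, megakaryocyte precursors and mast cell progenitors. Of the megakaryocyte and platelet markers, 11 of 11 tested were lower in D and none was higher, and their summed level was 169 to 325 TPM in the D and 546 to 745 TPM in the M libraries. Of 12 stem and progenitor markers, 1 was higher and 4 were lower. Over all genes tested, the shares were 17.4% higher and 17.3% lower. The part of these cell types in the Gata2 value was not tested.

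The 2 Gata2 transcripts share their coding exons, and their first exons start 4.443 kb apart. NM_001355253 begins with the upstream first exon (chr6:88193891-88194000) and NM_008090 with the downstream one (chr6:88198334-88198881). The upstream form was at 50.2, 26.3, 28.7 and 34.6 TPM in the D and 16.5, 20.2, 20.0 and 17.6 TPM in the M libraries, while the downstream form was at 12.7, 14.9, 10.3 and 8.30 TPM and at 15.3, 11.9, 13.7 and 13.3 TPM. The upstream form took 74.5% ± 7.77 of Gata2 TPM in D and 57.8% ± 4.69 in M (SD, n = 4 each). D replicate 2, at 63.8%, was close to the highest M library at 62.9%. The count ratio of upstream to downstream form was 3.83, 1.71, 2.68 and 4.03 in the D and 1.04, 1.64, 1.41 and 1.28 in the M libraries, which did not overlap. The ratio was chosen after the values were seen and is given without a p-value. How reads were divided between transcripts was decided by the authors' quantifier.

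**Figure D2:**
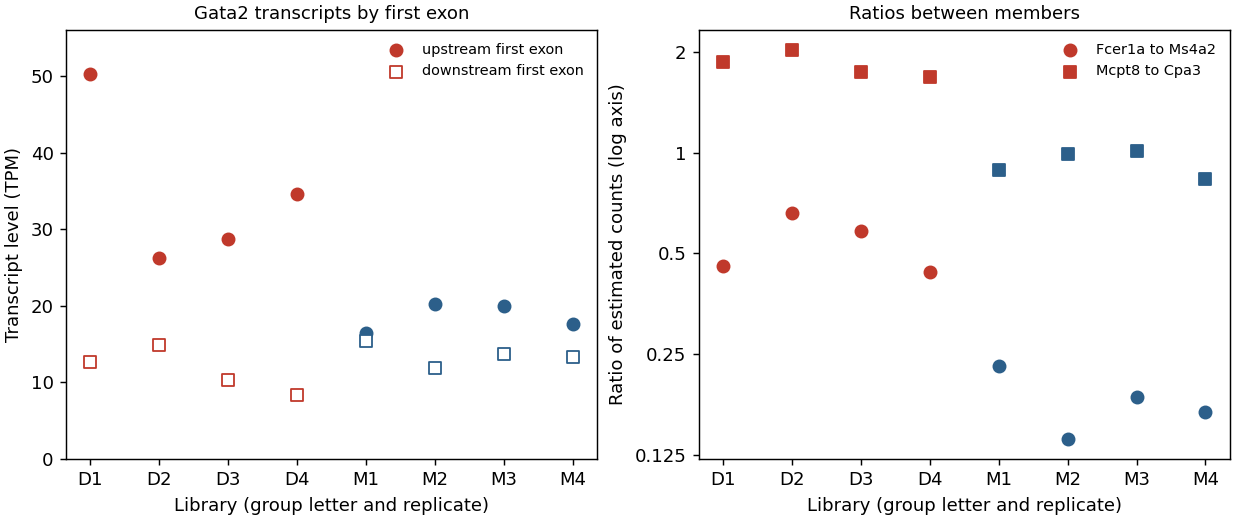
Left, level of the 2 Gata2 transcripts in TPM, with filled circles for the upstream and open squares for the downstream first exon. Right, ratios of estimated counts on a log axis, with circles for Fcer1a to Ms4a2 and squares for Mcpt8 to Cpa3; in both panels each point is a library, D in red and M in blue. The D ratios of both pairs were above the M ratios in all 4 libraries of each group, and the upstream Gata2 form was higher in each D library than in any M library.

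In a separate edgeR fit of 32312 transcripts, 23 of the 31 transcripts of these genes were tested. Of the 23, 7 were higher in D and 0 lower, against 2.28% of all transcripts higher. NM_010184 of Fcer1a (log2 fold change 2.14 ± 0.16, adjusted p of 0.00452) and XM_006518671 of Mcpt8 (1.71 ± 0.19, adjusted p of 0.00939) passed in each of the 8 fits that left out 1 library and with the replicate number as a block. The main Mcpt8 transcript, NM_008572 (1.55 ± 0.20, adjusted p of 0.0133), passed in 7 of the 8 fits and reached 0.0672 with the block. NM_008230 of Hdc (1.36 ± 0.19, adjusted p of 0.0167) passed in 5 of the 8 and with the block (0.0465). XM_011246499 of Prss34 (4.30-fold, edgeR adjusted p of 0.0270) passed in 1 of the 8 and reached 0.0702 with the block. NM_178372 of Prss34 (1.38 ± 0.16, adjusted p of 0.0112) passed in the 8 fits but had an adjusted p of 0.0535 with the block. NM_001355253 of Gata2 was called at 1.00 ± 0.20 (adjusted p of 0.0394), but passed in only 1 of the 8 fits and reached 0.160 with the block. NM_008090 was not called (-0.15 ± 0.19, adjusted p of 0.866).

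Leaving out any single library other than D replicate 1 took the count of called transcripts from 1317 to between 243 and 751, and the block took it to 364. The difference between the transcripts of a gene was therefore read from the library values above. NM_007753 of Cpa3 and NM_013516 of Ms4a2 just missed the threshold, with edgeR adjusted p of 0.0536 and 0.0559. Mcpt8 divided its TPM between NM_008572 and XM_006518671 in nearly the same way in both groups, with 80.6% ± 1.13 and 82.3% ± 1.58 on the former. None of the 8 Cd200r3 transcripts tested passed.

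Cd200r3 (chr16:44943596-45058365) encodes an activating receptor of the CD200 receptor family found on basophils and mast cells. It stood at 26.7, 23.5, 22.6 and 22.1 CPM in the D and at 9.53, 17.3, 16.5 and 14.0 CPM in the M libraries. M replicate 1 was well below the other M libraries. The difference was 1.66-fold (log2 fold change 0.73 ± 0.16, edgeR adjusted p of 0.00655). With the most abundant transcript alone in place of the gene sum, the adjusted p rose to 0.0935 at a log2 fold change of 1.22. The related receptor genes Cd200r1 and Cd200r4 were not called, with log2 fold changes of 0.03 ± 0.11 and 0.03 ± 0.10 (edgeR adjusted p of 0.864 and 0.839). Cd200r2, the nearest tested gene, 27.756 kb away, was lower in D (4.41 ± 0.952 against 7.01 ± 1.50 CPM, edgeR adjusted p of 0.0249).

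Il4 and Tpsb2 were near the limit of detection. Il4 (chr11:53612460-53618665), the type 2 cytokine gene, had 17, 6, 3 and 12 counts in the D and 4, 4, 8 and 3 in the M libraries. The groups overlapped, and the ratio of summed counts scaled to depth was 1.95 (exact 95% interval 1.09 to 3.57, which covers counting error only). Without the filter, edgeR gave Il4 an adjusted p of 0.186. Tpsb2 (chr17:25366308-25368096), a mast cell tryptase also called mouse mast cell protease 6, had 10, 1, 2 and 7 counts in the D and 0, 0, 0 and 2 in the M libraries. A count of 0 allows up to 0.151 to 0.156 CPM in those M libraries (3 counts). The ratio of summed counts was 9.73 (exact 95% interval 2.36 to 85.9, counting error only), and without the filter edgeR gave an adjusted p of 0.0396. On unfiltered log2 TPM, limma called the 8 tested genes and not Tpsb2. D replicates 1 and 4 held 17 of the 20 D counts. Tpsb2 shares much of its sequence with Tpsab1, which was not analysed here, so its reads may be shared between them.

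Ordered by level per length, Prss34 led with 567 ± 104 TPM in the D and 229 ± 38.5 TPM in the M libraries, followed by Mcpt8 with 443 ± 114 and 158 ± 28.4 TPM. Prss34 lay above 97.6% of tested genes in mean TPM. In D, the next were Hdc (219 ± 23.2), Cpa3 (146 ± 32.5), Fcer1a (56.8 ± 9.49), Gata2 (46.5 ± 11.0), Ms4a2 (39.4 ± 8.29) and Cd200r3 (22.5 ± 2.78 TPM). The ranges of Prss34 and Mcpt8, of Fcer1a and Gata2, and of Gata2 and Ms4a2 overlapped there, although each pair kept its order within each of the 4 libraries. In M, Fcer1a was the lowest of the 8 at 13.2 ± 1.89 TPM, close to Cd200r3 (14.5 ± 3.80 TPM), and Cpa3 (103 ± 10.9 TPM) and Hdc (91.1 ± 26.8 TPM) overlapped. Fcer1a thus moved from rank 8 in M to rank 5 in D.

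**Figure D3:**
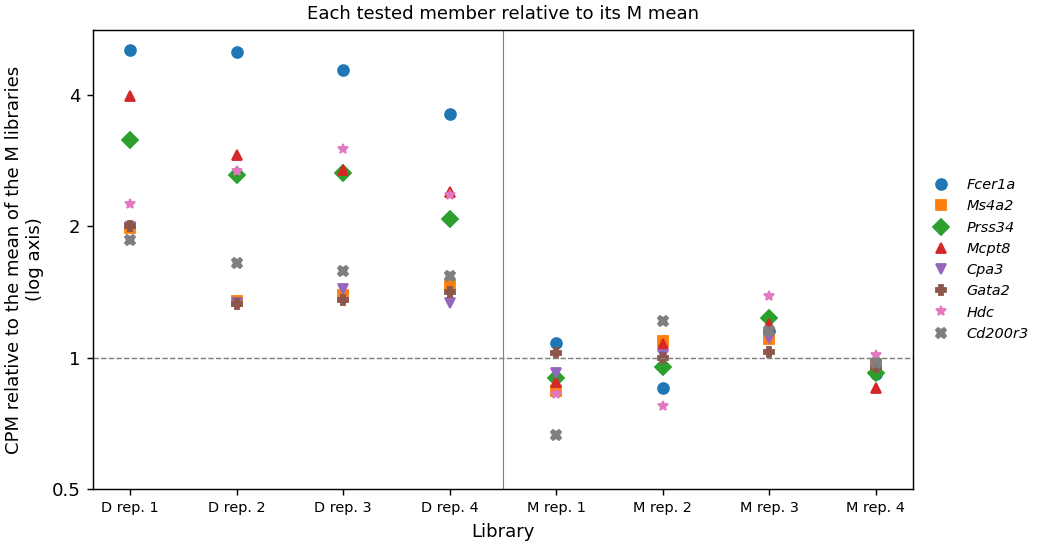
CPM of each tested gene divided by the mean of its 4 M libraries (log axis), by library, with a symbol per gene and a dashed line at 1. Fcer1a was highest in each D library, Mcpt8, Prss34 and Hdc lay between the others, and Ms4a2, Cpa3, Gata2 and Cd200r3 were lowest.

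Across libraries the genes followed a similar order. D replicate 1 was the highest D library for 7 of the 8 genes and M replicate 3 the highest M library for 7 of 8. D replicate 4 was the lowest D library for 5 of 8. The correlation of each gene with the mean of the other members over the 8 libraries ran from 0.886 for Hdc to 0.993 for Mcpt8. These values describe 8 libraries that fall into 2 groups, and most of the shared variation is the difference between the groups. Without D replicates 1 and 3, all 8 genes were still called higher by edgeR. Their log2 fold changes were then 2.13 for Fcer1a, 1.43 for Mcpt8, 1.36 for Hdc, 1.26 for Prss34, 0.69 for Cd200r3, 0.52 for Ms4a2, 0.48 for Gata2 and 0.44 for Cpa3. Without D replicate 1 alone, the log2 fold changes of Cpa3, Gata2 and Ms4a2 were 0.48, 0.47 and 0.51, each still called.

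The genes outside the set whose log2 CPM followed it most closely, among 10946 genes with a mean log2 CPM of at least 1, were Snx3 (r = 0.978), Rnf138, Cenpa, Itm2c, Haus3, Dse, Med21 and Stk39 (r = 0.970). Dse was at 28.9 ± 2.22 CPM in the D and 18.7 ± 1.71 CPM in the M libraries, a log2 fold change of 0.63. Stk39 was at 4.15 ± 0.717 and 1.31 ± 0.285 CPM, with 1.66, and the log2 fold changes of the remaining 6 ran from 0.15 to 0.43. Snx3 itself was not called (115 ± 4.78 against 103 ± 1.57 CPM, edgeR adjusted p of 0.0620). The correlation over 8 libraries in 2 groups is a description.

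Further receptors and products of basophils were read from a list of 24 genes, of which 21 were tested, 11 higher and 1 lower, with a median log2 fold change of 0.26 (17.4% and 17.3% of all genes tested). With library totals, log2 TPM or log2 FPKM, 9 were higher and 2 lower. Of all 12839 genes, these settings called 4870, 4612 and 4813, of which 1524, 1516 and 1475 were higher. Ccr3, the eotaxin receptor of basophils and eosinophils, rose 4.82-fold (9.09 ± 4.54 against 2.02 ± 0.801 TPM, edgeR adjusted p of 0.00770). Il18r1, a chain of the IL-18 receptor, rose 2.53-fold and Gzmb, granzyme B, 3.74-fold, with edgeR adjusted p of 0.00186 and 0.000745. Alox5, the lipoxygenase of leukotriene synthesis, rose 1.73-fold (180 ± 34.7 against 111 ± 6.25 TPM). Not all genes of this list are particular to basophils, and the part of other cell types in these values was not tested. Il3ra, the specific chain of the receptor for IL-3, the main basophil growth factor, was not called at 26.2 ± 5.63 against 29.6 ± 3.04 TPM (log2 fold change -0.21 ± 0.13, adjusted p of 0.213). Il7r fell by 0.95 on the log2 scale. Itga2, an integrin chain, was not called here (log2 fold change -0.45 ± 0.16, edgeR adjusted p of 0.0517). It was called lower with upper-quartile factors and library totals (edgeR adjusted p of 0.0460 and 0.0247). On log2 TPM and log2 FPKM it was also called lower (limma adjusted p of 0.0406 and 0.0366).

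Mast cell markers beyond the set showed no common direction, with 3 of 7 tested genes higher and 2 lower and a median log2 fold change of 0.06, which was -0.04 with library totals (2 higher, 2 lower). Over all genes tested, 17.4% were higher and 17.3% lower with TMM. Library totals called 4870 of the 12839 genes, of which 1524 were higher. Slc18a2, given above, Adora3, an adenosine receptor (1.56-fold, edgeR adjusted p of 0.0223), and Mitf were the higher ones. Tpsg1, a tryptase gene below the filter, had 51.2 estimated counts over the D and 14.4 over the M libraries. Kit, the stem cell factor receptor that mast cells keep and basophils lose, was at 33.4 ± 4.94 TPM in the D and 39.4 ± 2.46 TPM in the M libraries (log2 fold change -0.15 ± 0.09, edgeR adjusted p of 0.213). Rab27b, which acts in granule release, and Hpgds, the prostaglandin D synthase, were lower in D by log2 fold changes of -1.05 ± 0.15 and -0.90 ± 0.22 (edgeR adjusted p of 0.000697 and 0.0133). Without D replicates 1 and 3 the adjusted p of Hpgds was 0.0632. The mast cell chymase genes Cma1 and Mcpt4 had 2 and 1 counts over the 4 D libraries and 7 and 1 over the 4 M libraries. Mcpt1, Mcpt2 and Mcpt9, further mast cell proteases, had at most 7 counts per group.

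The signalling chain below the IgE receptor had no common direction. Of 24 genes, 6 were higher and 6 lower (17.4% and 17.3% of all genes tested), with a median log2 fold change of -0.00. Lcp2, the adaptor SLP-76, rose 1.55-fold (edgeR adjusted p of 0.000807). Rasgrp1, a RAS activator, fell by 2.21 on the log2 scale (1.89 ± 0.711 against 9.30 ± 1.48 TPM, edgeR adjusted p of 0.000129) and Map3k1 by 0.85. Syk, the kinase that binds the receptor, was not called (231 ± 19.8 against 254 ± 23.0 TPM, adjusted p of 0.736). Most of these genes act in T cells, B cells or other leukocytes too. The B lineage markers, of which 10 of 12 were lower, summed to 76.2 to 268 TPM in the D and 1277 to 1664 TPM in the M libraries, and their part in the lower genes was not tested.

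Among 25 transcription factors of these lineages, 8 were higher and 4 lower, with a median log2 fold change of 0.10, beside 17.4% higher and 17.3% lower of all genes tested. The count of lower genes was near the share over all genes. With library totals as the scaling, 4 were higher and 4 lower and the median was -0.01. Library totals called 4870 of all 12839 genes, of which 1524 were higher in D. Nfil3, a leucine zipper factor of type 2 cytokine control, rose 1.61-fold (46.6 ± 6.06 against 30.9 ± 3.50 TPM, edgeR adjusted p of 0.00158). Zfpm1, the GATA cofactor FOG-1, fell by 1.59 on the log2 scale (12.4 ± 4.36 against 38.3 ± 2.88 TPM, edgeR adjusted p of 0.000755), and Tcf3, the E protein E2A, by 1.22. Gata1, which acts with GATA2 in mast cell and erythroid lineages, was not called at 10.4 ± 3.17 against 15.2 ± 3.00 TPM (adjusted p of 0.0974). Cebpa and Mitf, factors tied to the choice between basophil and mast cell, differed in outcome. Cebpa was at 76.8 ± 9.01 against 77.1 ± 4.96 TPM (adjusted p of 0.426), and Mitf rose 1.40-fold (adjusted p of 0.0286, but 0.0547 with library totals).

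Of the type 2 cytokine pathway, 4 of 8 tested genes were higher and 1 was lower (17.4% and 17.3% of all genes tested), with a median log2 fold change of 0.33. Il4ra and Stat6, the receptor chain and transcription factor of IL-4 signalling, rose 1.40-fold and 1.28-fold (edgeR adjusted p of 0.0108 and 0.0310). With library totals, Stat6 had an adjusted p of 0.0611. Il13ra1 rose 3.85-fold, but its D libraries were widely spread (17.1 ± 10.8 against 4.80 ± 1.76 TPM, adjusted p of 0.0305, and 0.0540 by limma on log2 TPM). Il13 and Il5 were below the filter.

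**Figure D4:**
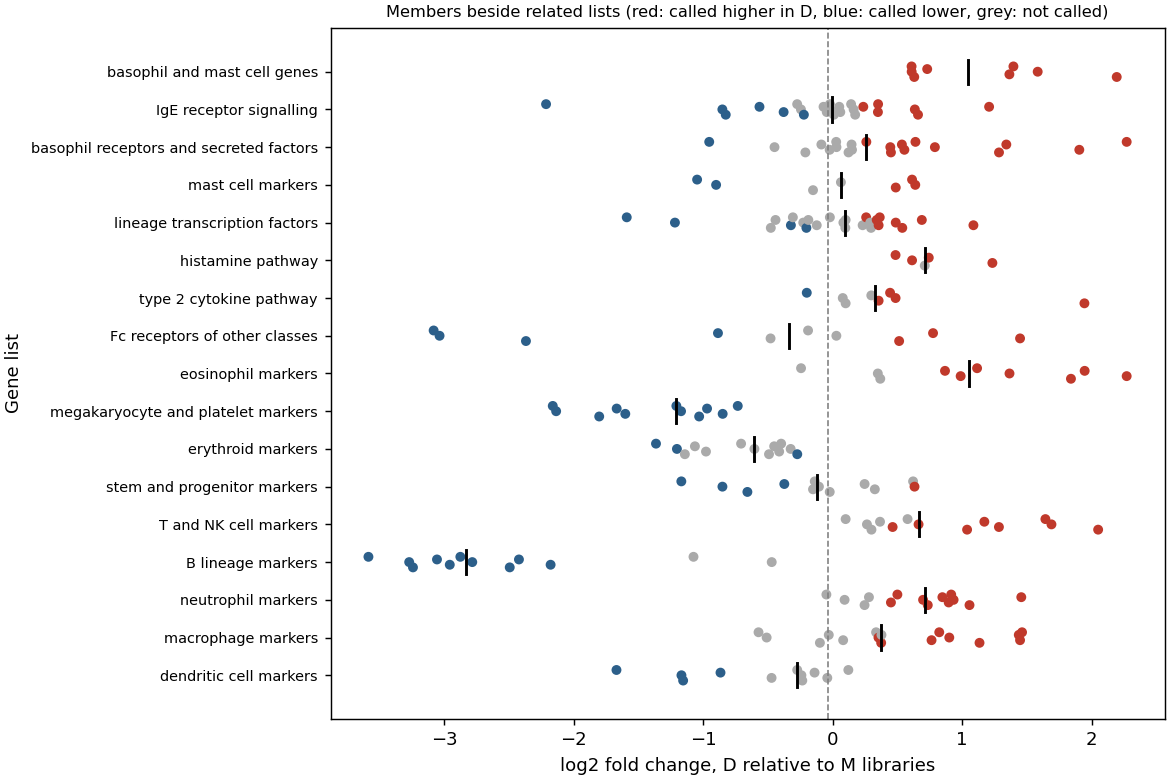
Log2 fold change of D relative to M for each tested gene, by list, for lists with at least 5 tested genes. Each point is a gene (red called higher, blue called lower, grey not called), black bars are list medians, and the dashed line is the median of all genes at -0.03. The 8 basophil and mast cell genes all lay to the right, with a median of 1.05, and the B lineage markers had a median of -2.83.

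Markers of other cell types moved in both directions, beside 17.4% higher and 17.3% lower of all genes tested. Of the 10 tested eosinophil markers, 7 were higher and none was lower, with a median log2 fold change of 1.05 and a summed level of 554 to 960 TPM in the D and 452 to 615 TPM in the M libraries. Epx, eosinophil peroxidase, rose 2.58-fold (25.2 ± 6.52 against 10.5 ± 2.18 TPM, edgeR adjusted p of 0.00178), and Prg2, the major basic protein, was not called (497 ± 114 against 413 ± 55.3 TPM, adjusted p of 0.122). Of 13 tested T and NK cell markers, 8 were higher and none lower, with summed levels of 147 to 182 and 116 to 131 TPM. Of 16 macrophage markers, 9 were higher and none lower. Of 13 erythroid markers, 3 were lower, near the share of all genes, and none higher. Of 11 tested dendritic cell markers, 4 were lower and none higher, with summed levels of 367 to 760 TPM in the D and 823 to 969 TPM in the M libraries. The megakaryocyte and B lineage markers, given above, were mostly lower. Their part in the values of the 10 genes was not tested.

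The chromosomal neighbours of the 10 genes did not all share their direction. Of the 19 nearest tested genes, 6 were higher, 4 lower and 9 not called. Over all genes tested, 17.4% were called higher and 17.3% lower. Higher were Ms4a6d beside Ms4a2, Gyg and Tbl1xr1 on either side of Cpa3, Gabpb1 beside Hdc, Ccdc80 beside Cd200r3, and Prss28, given below. The log2 fold changes were 0.72, 0.74, 0.54, 0.27, 0.80 and 1.39 in this order. Tbl1xr1 lay 1834 kb from Cpa3. Ms4a3, a granulocyte progenitor gene 5.709 kb from Ms4a2, was at 89.6 ± 6.27 CPM in the D and 89.8 ± 13.0 CPM in the M libraries. Ctsg, the neutrophil protease cathepsin G, lies 14.386 kb from Mcpt8 in the same protease cluster and was at 247 ± 10.1 against 253 ± 28.6 CPM (edgeR adjusted p of 0.743). Prss28, a trypsin-like protease gene 8.478 kb from Prss34, rose 2.63-fold from a low level (0.664 ± 0.0986 against 0.249 ± 0.109 CPM, edgeR adjusted p of 0.0118). Rad50 and Kif3a, on either side of Il4, were both lower in D, with log2 fold changes of -0.20 ± 0.06 and -0.31 ± 0.10 (edgeR adjusted p of 0.0242 and 0.0289), and Rad50 lost its call without D replicates 1 and 3 (adjusted p of 0.0737).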

How the data were processed

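The members and gene lists, and the tests, were chosen with earlier results of these data known. Per the labels, SOAPnuke 1.5.6 removed poor reads, alignment to mm10 used HISTA2 2.1.0 (spelled so there), and limma 3.66.0 was the authors' test. The sources used here do not give the quantifier, the annotation release or the use of strand. For each RefSeq transcript the authors deposited estimated counts, TPM and FPKM. Their estimated counts are not normalized and are not all whole (37.3% to 40.8% exactly whole per library). The authors' TPM and FPKM are scaled by transcript length, per the file headers. A further 16 deposited columns of normalized counts and group means were not used.

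Counts of 58563 transcripts (1509 repeat rows added in) were summed per gene and rounded. Tests used edgeR 4.0.16 (TMM, robust quasi-likelihood fit, filterByExpr with a minimum count of 10 and a total of 15, group only) in R 4.3.3, with Benjamini-Hochberg adjustment over all genes or transcripts at 0.05. CPM use TMM-scaled library sizes. Named genes were the 10 members, up to 4 called genes with the lowest p and the highest by TPM in each of 18 lists, and the 8 genes most correlated with the set; Hrh4, Il3ra, Syk, Gata1, Cebpa, Mitf, Stat6, the Cd200r family, Ccr3, Il13, Il5, Itga2, Tpsg1, Ctsd, Lgals3, Itgam, Cd68, Gpnmb, Mertk, Mrc1, Csf1r, Adgre1, S100a8, the chymase genes and the chromosomal neighbours were named beyond that rule, after their values were seen. One result under the rule is not reported here. On simulated counts of 12839 genes with 200 changed, the gene fit recovered 81.0% of 2-fold and 97.0% of 4-fold changes, with 4.32% of its calls false. On 32312 simulated transcripts the transcript fit recovered 10.6% and 24.4%, with 9.09% of its calls false, above the 5% aimed at.

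Depth was 19048195 to 20027967 counts, intervals and floors cover counting error only, and reads carry no molecular identifiers. No 2 replicates agreed within sampling noise (chi-square per gene 6.54 to 67.9). Libraries with the same number deviated together from their group means (correlations 0.115, 0.131, 0.119 and 0.182, all above 0.1), so the numbers were treated as a possible pairing. The pairing comes from the labels' replicate numbers, and a blocked fit was an alternative. Others were DESeq2 1.42.0 factors and test, upper-quartile factors, library totals, voom (limma 3.58.1), other filters, log2 TPM or FPKM with pseudocounts of 1 and 0.1, other transcript sums and left-out libraries.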

Additional observations from a re-analysis of the deposited data

Results flagged for a closer look

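In 3 of the 20 groups of 4 libraries examined (10 genes in 2 groups), 1 library stood apart from the rest by a gap larger than Dixon's critical share of the range. A rate of about 1 in 20 by chance holds for independent, normally distributed values. These genes share libraries and some counts were at 0, so the 3 flags are not compared with that rate. Cpa3 in D replicate 1 was at 143.73 CPM, with the gap to the next D library at 0.838 of the range. Gata2 in D replicate 1 was at 105.85 CPM, with a gap of 0.874 of the range. Both genes remained higher in D without that library. Tpsb2 in M replicate 4 was at 0.21 TPM, from 2 counts, while the other 3 M libraries were at 0.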

How the results depend on the processing

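Over 23 alternatives for each of the 8 tested genes, 183 of 184 values kept their direction and their side of the threshold, and the exception was Cd200r3 with the most abundant transcript. The count of these genes called was 8 in all fits but that one (7) and edgeR without a filter (9 of 10); limma on unfiltered log2 TPM called 8 of 10. It stayed 8 without any one library. The count of all genes called moved from 4456 to 2092 with the most abundant transcript of each gene and to 2532 with curated transcripts, and was 3458 to 5369 without 1 library. The share of calls higher in D, 50.1%, was 31.3% with library totals and 30.6% to 33.0% with TPM or FPKM, where the median of all genes lay at -0.04 to -0.14 on the log2 scale. With the replicate block, 4815 genes were called and the 8 genes kept their calls, while transcripts called fell from 1317 to 364, of which 3 were among these genes. Without 1 library, 243 to 1674 transcripts were called. The cause was not tested. Counts of Il4 and Tpsb2 were too few for a call under the filter.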
